A study of Mus musculus with 17 samples.

Results

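The survival receptors of plasma cells were followed through the 12 array probes whose annotated gene symbol was Tnfrsf17, Tnfrsf13b, Tnfrsf13c, Il5ra, Il6ra, Il6st, Cd28 or Slamf7. These 12 probes were taken from 45281 on the array, and the 8 genes from 12989 with a name. Tnfrsf17, Tnfrsf13c, Il5ra, Il6st and Cd28 had 1 probe each, Tnfrsf13b and Slamf7 had 2 each, and Il6ra had 3. The genes were chosen for what their proteins do and not by any measured value.

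Antibody-secreting cells (ASCs) are the plasmablasts and plasma cells that release antibody, and those that settle in the bone marrow can persist there for long periods. Their persistence depends on outside signals. The cytokines APRIL and BAFF bind receptors of the TNF receptor superfamily on their surface, IL-6 and IL-5 from stromal cells and eosinophils add to this, and CD28 meets its ligands CD80 and CD86 on neighbouring myeloid cells. The receptors pass these signals to TRAF adaptors and NF-kB, to JAK kinases and STAT3 or STAT5, or to PI3-kinase, and the anti-apoptotic protein MCL1 is a main endpoint in plasma cells.

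The study compared ASCs of young and aged mice by whole-genome expression arrays. The young group held 9 samples of mice aged 6 to 8 weeks and the aged group 6 samples of mice older than 17 months. The mice came from a commercial breeder, the labels name no strain, sex, genotype or treatment, and the methods state that a sample was 1 mouse or, where few cells were recovered, a pool, without saying here which. The mice that the study counts outnumber the samples in the aged group only, so the effects of pooling and of age cannot be told apart. Cells were sorted from hind-leg marrow by surface staining, with CD138 among the markers that were required and CD3, CD14 and IgD among those excluded, and the RNA was amplified before hybridization.

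Between 8998 and 15864 probes were detected in the young samples and between 10401 and 17120 in the aged samples. A probe counted as detected in a sample when it passed on any array of that sample. Young samples 3 and 4, with 2 arrays each, had 13830 and 15864 detected probes. The highest count among the other young samples was 12945. The repeat arrays of young samples 3 and 4 correlated at r = 0.91 and r = 0.92 over the tested probes, while arrays of different samples reached r = 0.93 at the highest. Plasma cell markers were present, although Sdc1, which encodes CD138, lay below the detection filter. Of 13 tested plasma cell markers all had a higher mean in the aged group and 4 passed the test (Creld2, Mzb1, Trp53inp1 and Xbp1). Their mean signal was 10.09 to 10.62 in the young samples, 10.38 in aged sample 2 and 11.07 to 11.33 in the other aged samples on the log2 scale. Of 7 tested markers of precursor B cells 5 fell with age. Their mean lay between 9.14 and 10.04 in the young samples and between 8.45 and 8.76 in the aged ones. In a sorted population, fewer cells of a type and less RNA per cell cannot be told apart, and the part of such mixed cells in the results below was not tested. Markers of neutrophils, such as S100a9, were also detected in all 15 samples.

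The promoters of the 3 receptors with the largest differences, Tnfrsf13b, Il5ra and Slamf7, are shown to give their sequence context. Each runs from 250 bases before to 50 bases after the annotated start and is written 5′ to 3′ along the gene, from RefSeq on GRCm38.p6. Capitals mark an AP-1 element (TGACTCA or TGAGTCA) or the core bound by the unfolded-protein-response factor XBP1 (ACGTG or CACGT).
Tnfrsf13b, chr11:61126505-61126804, plus strand: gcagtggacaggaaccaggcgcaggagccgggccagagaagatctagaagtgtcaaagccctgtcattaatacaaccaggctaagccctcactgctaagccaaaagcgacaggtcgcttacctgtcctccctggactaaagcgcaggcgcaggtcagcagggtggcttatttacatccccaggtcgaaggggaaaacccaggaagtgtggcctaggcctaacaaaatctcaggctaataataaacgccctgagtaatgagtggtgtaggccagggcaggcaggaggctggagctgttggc
Il5ra, chr6:106748988-106749287, minus strand: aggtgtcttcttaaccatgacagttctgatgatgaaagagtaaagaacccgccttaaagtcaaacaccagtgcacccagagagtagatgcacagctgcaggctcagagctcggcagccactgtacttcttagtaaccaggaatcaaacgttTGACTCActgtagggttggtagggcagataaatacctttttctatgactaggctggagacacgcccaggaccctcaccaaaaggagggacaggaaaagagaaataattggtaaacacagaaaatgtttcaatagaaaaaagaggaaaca
Slamf7, chr1:171648950-171649249, minus strand: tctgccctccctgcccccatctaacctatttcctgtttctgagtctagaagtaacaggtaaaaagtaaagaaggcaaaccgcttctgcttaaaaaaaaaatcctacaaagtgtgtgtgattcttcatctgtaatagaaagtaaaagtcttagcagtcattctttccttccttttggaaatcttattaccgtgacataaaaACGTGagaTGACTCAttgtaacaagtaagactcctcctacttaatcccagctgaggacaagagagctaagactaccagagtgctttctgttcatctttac

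Promoters were at hand for 7 of the 8 genes. They were searched on both strands for these 2 elements and for the TATA box (TATAAA or TTTATA). The AP-1 element was present in Il5ra and Slamf7, and in 5.20% of 32851 promoters of this length. The XBP1 core was present in Slamf7 and Il6ra, where its 2 orientations overlap, and in 19.6% of all promoters. Tnfrsf17 held the letters of the TATA box at -114 from the annotated start, and 13.6% of all promoters held them at any position. The Tnfrsf13b promoter held none of the 3 elements. These matches describe the letters only, and the elements were chosen with the sequences in view.

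Of the 12 probes, 8 passed the filter on dim probes (detected in at least 8 of 15 samples, with a range of at least 1.2-fold), and they covered every gene but Il6st. A probe was called when its adjusted p from limma, corrected over all 11073 tested probes, was under 0.05. By that rule 1 of the 8, Il5ra, was called, and it was higher in the aged group, against 1.38% of all tested probes called in either direction and 1.06% called higher. With no correction of p, 5 of the 8 probes passed 0.05, all with the higher mean in the aged samples, where 14.1% of tested probes passed in either direction, 8.81% higher and 5.27% lower. The aged mean was the higher one for 7 of the 8, as for 48.2% of tested probes. No receptor probe separated the groups without overlap, which 0.659% of tested probes did. The median difference of the 8 probes was 0.59 on the log2 scale, compared with -0.01 over all tested probes. Filtering can favour a probe that is detected mainly in the group where it is high, as Tnfrsf17 was, and these counts are a description of the probes that passed. Without any filter, 5 of all 12 probes had an unadjusted p under 0.05, all higher in the aged group, against 7.16% of 45281 probes in either direction and 4.12% higher, and none was called, against 0.0994%.

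**Figure D1:**
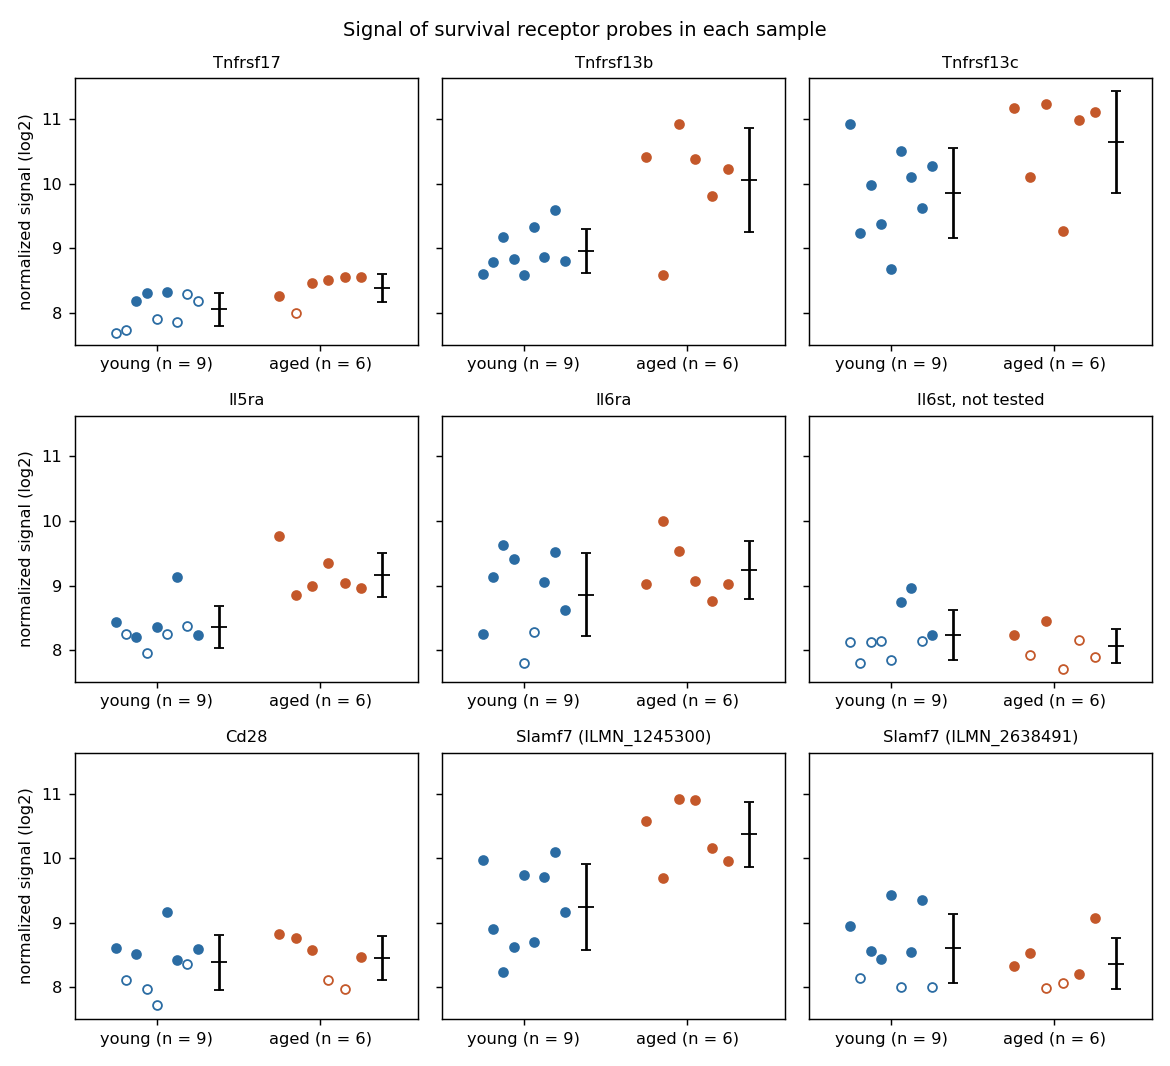
Normalized log2 signal (vertical axis) of each main probe, and of the second Slamf7 probe, in 9 young (blue) and 6 aged (orange) samples. Filled points are detected above background, open points are not, and the bar beside each group is its mean ± SD. The aged Il5ra values start at 8.85, above all young samples but 1, and aged sample 2 sits among the young samples for Tnfrsf13b.

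Tnfrsf13b encodes TACI, a receptor for both APRIL and BAFF. Its main probe (ILMN_2422416) was detected in all 15 samples. The lowest young sample was at 8.59, the median at 8.84 and the highest at 9.59 on the log2 scale, and the aged samples ran from 8.59 through a median of 10.31 to 10.93. Of the 6 aged samples 5 lay above the highest young sample, while aged sample 2 lay level with the lowest young one. The group mean was 8.96 ± 0.34 (SD, n = 9) in the young and 10.06 ± 0.81 (SD, n = 6) in the aged samples. The difference of 1.11 (SE 0.28, 95% interval 0.52 to 1.69) had an adjusted p of 0.0521 by limma and so missed the threshold. Without aged sample 2 the difference was 1.39 and the adjusted p was 0.00206, and without young sample 8 the adjusted p was 0.0437. The second Tnfrsf13b probe (ILMN_2480814) was detected in none of the young samples and in 1 aged sample, and did not pass the filter. Its difference was -0.03 (SE 0.07, adjusted p = 0.951 over all 45281 probes).

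Tnfrsf13c encodes the BAFF receptor, which is the main BAFF receptor of mature B cells. Its probe was detected in all samples and ranged from 8.69 (median 9.98) to 10.92 in the young and from 9.28 (median 11.05) to 11.24 in the aged samples. The aged samples overlapped the young ones, with aged samples 2 and 4 inside the young range and the other 4 above its top. The difference was 0.79 (SE 0.34, 95% interval 0.09 to 1.503, adjusted p = 0.292 by limma). The mean of 4 tested mature B cell markers ran from 8.83 to 9.54 in the young and from 8.87 to 9.36 in the aged samples, with 1 of 6 aged samples above the young median. None of the 4 was called, but they went both ways. Cd72 differed by -0.75 (adjusted p = 0.0692) and Blk by -0.41 (adjusted p = 0.246), with no aged sample above the young median in either, and Fcrla differed by 0.45 (adjusted p = 0.445). The part of mature B cell RNA in the Tnfrsf13c values was not tested.

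Tnfrsf17 encodes BCMA, the APRIL receptor that long-lived plasma cells of the marrow rely on. Its probe was dim, with a mean signal at the 0.614 percentile of tested probes, and detection reached 3 of 9 young samples and 5 of 6 aged ones. The young samples were 3, 4 and 6, of which 3 and 4 had 2 arrays each. Values ran from 7.70 (median 8.18) to 8.33 in the young samples and from 8.01 (median 8.49) to 8.55 in the aged samples. Of the aged samples 4 were above the highest young sample, and the lowest was again aged sample 2. The difference was 0.33 (SE 0.12, 95% interval 0.08 to 0.59), with an adjusted p of 0.190 by limma.

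Il5ra encodes the ligand-binding chain of the IL-5 receptor, which pairs with the shared beta chain Csf2rb. Detection reached 5 of 9 young samples and all 6 aged ones. The young samples ran from 7.96 (median 8.25) to 9.14 and the aged samples from 8.85 (median 9.02) to 9.76. Of the young samples 8 were below the lowest aged sample, and young sample 7 was the exception. The means were 8.35 ± 0.32 (SD, n = 9) and 9.16 ± 0.34 (SD, n = 6). Il5ra rose by 0.81 (SE 0.19, 95% interval 0.41 to 1.202), a 1.75-fold change, with an adjusted p of 0.0364 by limma. The call was narrow: it was kept in 3 of 15 fits that each left out 1 sample (young sample 2, young sample 7 or aged sample 2), and the adjusted p ranged from 0.0130 to 0.0910 over the 15. Csf2rb differed by 0.04 (SE 0.16, adjusted p = 0.945).

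Eosinophils also carry the IL-5 receptor. None of 4 tested eosinophil markers was called, and their median difference was 0.40. Epx, the eosinophil peroxidase, was at a mean of 9.64 ± 1.08 (SD, n = 9) in the young and 10.13 ± 1.56 (SD, n = 6) in the aged samples. Epx differed by 0.49, Prg3 by 0.42 and Prg2 by 0.39, while Siglecf went the other way at -0.18. The mean of the 4 markers overlapped widely, from 8.90 to 10.33 in the young and from 8.92 to 11.07 in the aged samples. Aged sample 2 had the highest eosinophil mean and the lowest Il5ra value of the aged group, whereas aged sample 4 was second highest in both (10.70 and 9.35). Aged sample 1 had the highest Il5ra value (9.76) and the second-lowest eosinophil mean of the aged group (9.38). Among the young samples, young sample 7, the highest in Il5ra, had the second-highest eosinophil mean (10.19), and young samples 3 and 4 were the lowest in both. Other young samples went the other way. Young sample 1, the second highest in Il5ra (8.44), had an eosinophil mean of 9.04. Young sample 8 had the highest eosinophil mean (10.33) with Il5ra at 8.37. The part of eosinophil RNA in the Il5ra difference was not tested.

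**Figure D2:**
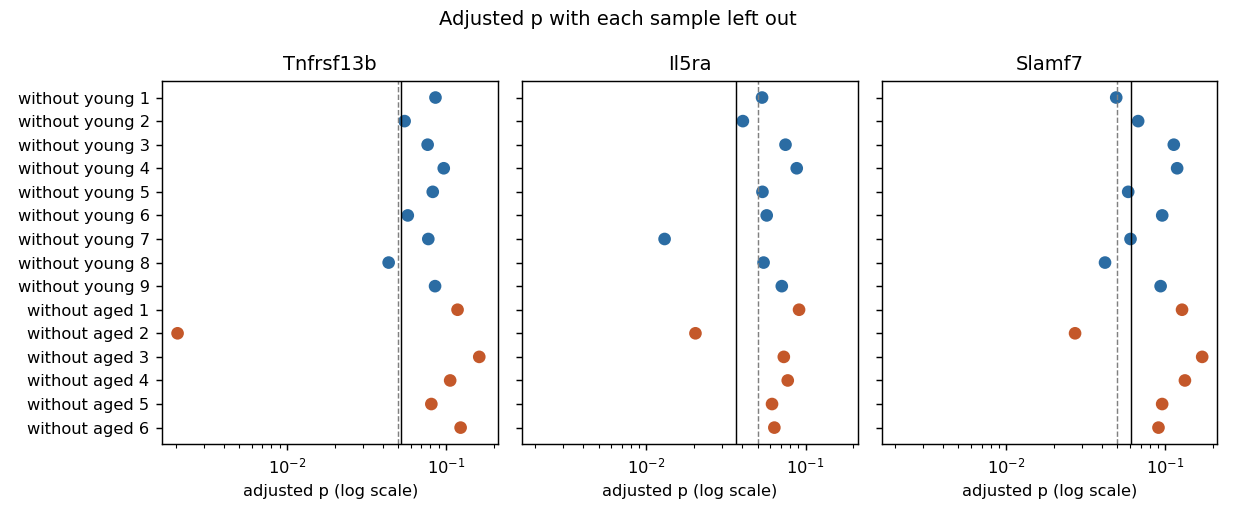
Adjusted p from limma (horizontal axis, log scale) for the main probes of Tnfrsf13b, Il5ra and Slamf7 when each sample named on the vertical axis is left out, young in blue and aged in orange. The dashed line is the threshold of 0.05 and the solid line the value with all 15 samples. Leaving out aged sample 2 puts all 3 receptors below the threshold.

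Il6ra encodes the IL-6 binding chain and Il6st encodes gp130, the signalling chain that IL-6 shares with other cytokines. The main Il6ra probe (ILMN_1255743) reached detection in 7 of 9 young samples and all 6 aged ones. It ran from 7.81 (median 9.06) to 9.63 in the young and from 8.77 (median 9.05) to 9.999 in the aged samples. The medians were nearly equal and the groups overlapped. The difference was 0.38 (SE 0.28, 95% interval -0.20 to 0.97, adjusted p = 0.594 by limma). The other Il6ra probes, ILMN_1216057 and ILMN_2706430, did not pass the filter and differed by -0.07 and 0.08. The Il6st probe reached detection in 3 young samples and 2 aged ones and was therefore not tested. It lay between 7.80 and 8.96 in the young and between 7.71 and 8.46 in the aged samples, and its difference was -0.17 (SE 0.16).

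Cd28 encodes the costimulatory receptor best known from T cells, which plasma cells carry as well. Detection reached 5 young samples and 4 aged ones. The young samples ran from 7.72 (median 8.42) to 9.17 and the aged samples from 7.98 (median 8.52) to 8.82. All aged values lay within the young range. The difference was 0.07 (SE 0.19, 95% interval -0.33 to 0.47, adjusted p = 0.924 by limma). The T cell genes Cd3e, Cd3d and Cd3g were below the filter, and the mean of the 2 T cell markers tested, Cd8a and Thy1, was 8.35 to 9.29 in the young and 8.31 to 9.25 in the aged samples.

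Slamf7 encodes a surface receptor of the SLAM family that plasma cells and NK cells carry. Its 2 probes passed the filter and moved apart. Probe ILMN_1245300, annotated to a GenBank cDNA, was detected in all 15 samples and ran from 8.23 (median 9.17) to 10.09 in the young and from 9.70 (median 10.37) to 10.91 in the aged samples. All 6 aged samples were above the young median, and the ranges overlapped. The means were 9.24 ± 0.67 (SD, n = 9) and 10.37 ± 0.51 (SD, n = 6). The difference of 1.13 (SE 0.30, 95% interval 0.51 to 1.74) had an adjusted p of 0.0611 by limma. The adjusted p fell to 0.0271 without aged sample 2, to 0.0418 without young sample 8 and to 0.0492 without young sample 1.

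Probe ILMN_2638491, annotated to the RefSeq Slamf7 mRNA, reached detection in 6 young samples and 4 aged ones. It ran from 8.00 (median 8.54) to 9.43 in the young and from 7.98 (median 8.26) to 9.07 in the aged samples. The groups overlapped, and the difference was -0.24 (SE 0.23, 95% interval -0.73 to 0.24, adjusted p = 0.713 by limma). The change with age differed between the 2 Slamf7 probes by 1.37 (exact two-sided permutation test over samples, p = 0.0014), a test added because the values were seen to part. The second probe was also the less repeatable on repeat arrays, which read 1.59 apart for young sample 3 and 0.79 apart for young sample 4. Of 3 tested NK cell markers none was called, and their mean was 9.78 to 10.19 in the young and 9.70 to 10.25 in the aged samples.

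**Figure D3:**
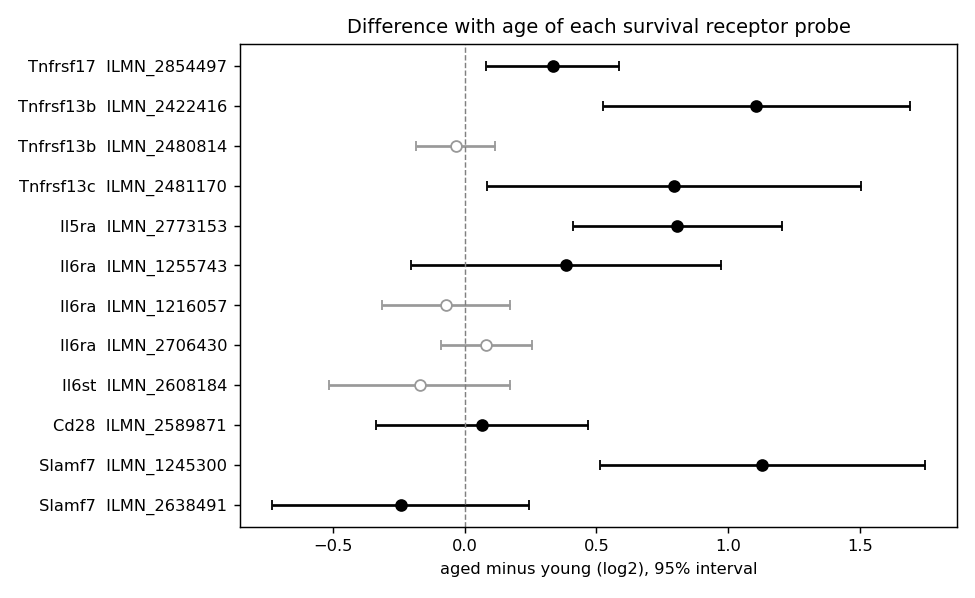
Difference between aged and young samples (log2, horizontal axis) with its 95% interval for all 12 probes. Black points passed the filter and grey open points did not. The Slamf7 probes lie on opposite sides of zero at 1.13 and -0.24.

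Whether the receptors differed from each other in their change with age was tested on the difference of their main probes within each sample, over 28 pairs, by exact two-sided permutation of 5005 regroupings. None of the 21 pairs of receptors that passed the filter was separated after adjustment over the 28 pairs. The 3 pairs that passed all set a receptor (Il5ra, Tnfrsf13b or Slamf7) against Il6st, whose probe was not above background in most samples. Such a pair restates the change of the other receptor and was not read as a difference between receptors. Among the TNF receptors, the change in Tnfrsf13b exceeded that in Tnfrsf17 by 0.77 (exact p = 0.00799, adjusted p = 0.0519), which missed the threshold. The Tnfrsf17 probe was also dim, with detection in 3 of 9 young samples. That pair was therefore not read as a difference between receptors. The change in Tnfrsf13b exceeded that in Tnfrsf13c by 0.31 (exact p = 0.488). Without aged sample 2, 10 pairs passed, 6 of them without Il6st, and the number ranged from 1 to 10 with each sample left out in turn.

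Since the plasma cell markers differed between the groups, the main probes of the tested receptors were set against the mean of the 13 tested markers. This was done within each age group, giving 14 relations tested by exact permutation. None passed after adjustment. Among the 9 young samples Slamf7 had r = 0.73 (p = 0.0282, adjusted p = 0.197) and rho = 0.72 (p = 0.0369, adjusted p = 0.516), and r was 0.57 without the 2 samples farthest from the median marker mean. Among the 6 aged samples Tnfrsf13b had r = 0.95 (exact p = 0.0139, adjusted p = 0.194) and rho = 0.77 (exact p = 0.103, adjusted p = 0.613). That r dropped to 0.35 without the 2 samples farthest from the median, so it rested on those samples. Aged sample 2 had the lowest value of its group in the marker mean, Tnfrsf13b, Tnfrsf17, Il5ra and Slamf7. How far the plasma cell content of a sample sets the receptor signals was not tested.

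**Figure D4:**
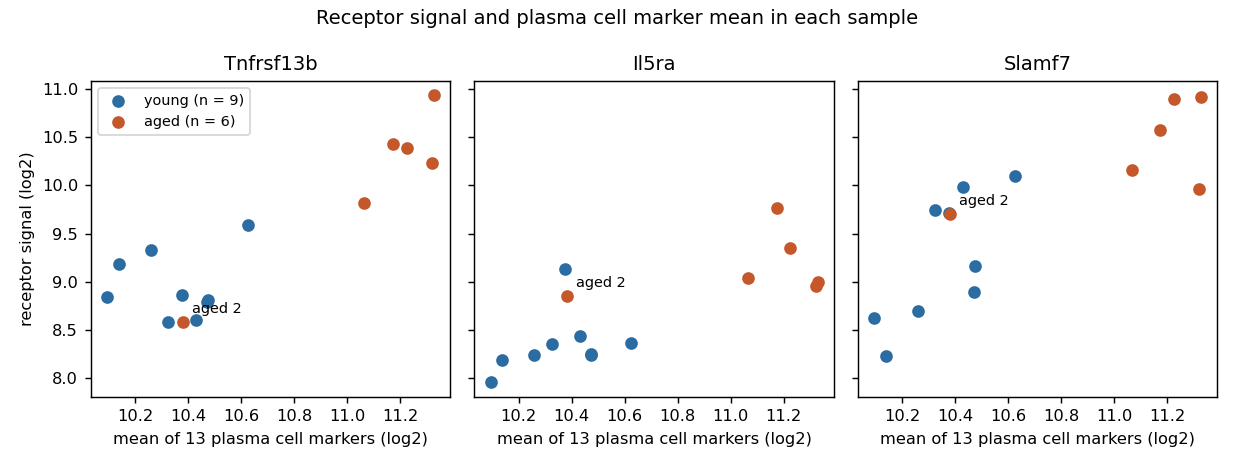
Signal of the main probes of Tnfrsf13b, Il5ra and Slamf7 (vertical axis, log2) against the mean log2 signal of 13 plasma cell markers (horizontal axis) in 9 young (blue) and 6 aged (orange) samples. The aged samples lie at 11.07 and above on the marker axis except aged sample 2 at 10.38.

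For the main probe of each tested receptor, the other named genes were ranked by Pearson r over the 15 samples. Each age group's mean had been removed first, and 6285 genes were ranked. The second Slamf7 probe was not used for this. These r values describe arrays that share depth and cell mixture, and they carry no test. Tnfrsf13b varied most like Man1a2, a mannosidase that trims N-glycans (r = 0.85), and Pigb, a mannosyltransferase of GPI anchor synthesis (r = 0.85). Slamf7 varied most like Mgat2, an N-acetylglucosaminyltransferase of the Golgi (r = 0.83), and Gbp4, an interferon-induced guanylate-binding protein (r = 0.80). Il5ra was closest to Ythdc1, a nuclear reader of methylated RNA (r = 0.86), and Mapk1ip1l (r = 0.85). Tnfrsf17 was closest to Ecpas (r = 0.92) and B4galnt1 (r = 0.89), and Tnfrsf13c to Uck2 (r = 0.90) and Tpp2 (r = 0.85). Il6ra was closest to Rab9 (r = 0.88) and 2900060B14Rik (r = 0.83), and Cd28 to Esyt1 (r = 0.89) and 9930021J03Rik (r = 0.85).

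The ligands, related receptors and signalling genes around these receptors were drawn up as 10 lists of 115 genes, of which 82 had a named probe and 50 were tested. None was called at an adjusted p under 0.05 by limma, against 1.51% of all named genes. The methods' t-test after the same adjustment also called none, where it called 99 of 11073 tested probes. With no correction of p, 8 genes with the higher mean in the aged group and 1 with the lower passed 0.05, where the background over named genes was 9.03% higher and 5.80% lower. As with the receptor probes, the filter can favour genes detected mainly where they are high. Socs3 was above background in 3 young and 5 aged samples, Traf1 in 4 and 5, and Psen2 in 4 and 6. Il6, the lower gene, had 8 and 2. Psenen and Tnfrsf1b each had 6 and 6, and Birc2, Ptpn11 and Mcl1 were above background in every sample. The counts therefore describe only the genes that passed the filter. The median difference over the 50 genes was 0.09, compared with -0.01 over all named genes. Of 6 ligands 3 were tested, with Tnfsf13b, which encodes BAFF, below the filter. Il6, which encodes the ligand of Il6ra and Il6st, had a mean of 9.05 ± 0.73 (SD, n = 9) in the young and 8.36 ± 0.47 (SD, n = 6) in the aged samples, and no aged sample was above the young median. Its difference of -0.69 had an unadjusted p of 0.0329 and an adjusted p of 0.300 by limma. The CD28 ligands Cd80 and Cd86 differed by -0.03 and -0.02.

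**Figure D5:**
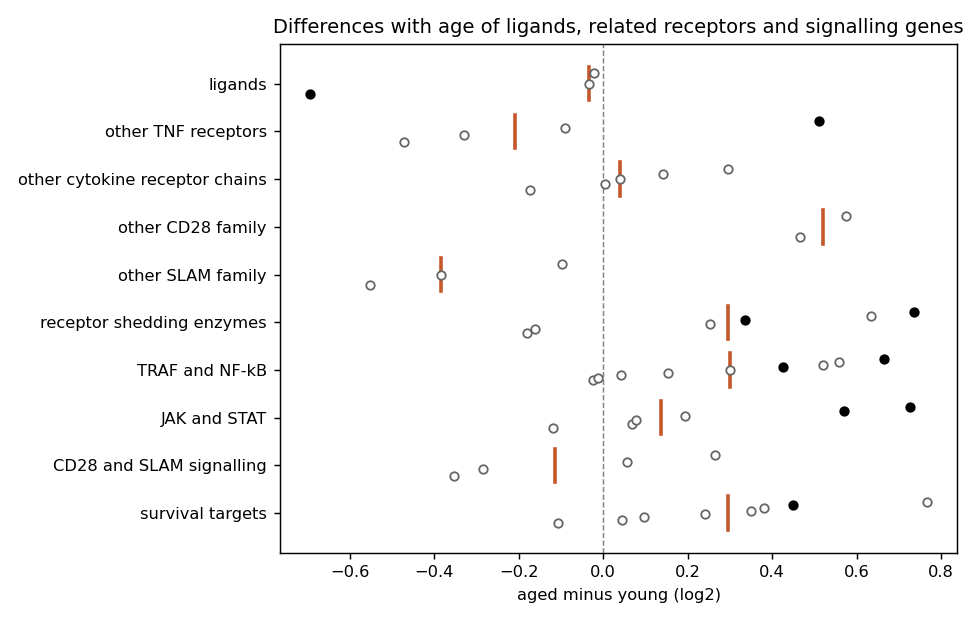
Difference between aged and young samples (log2, horizontal axis) of each tested gene in 10 lists (vertical axis). Filled points have an unadjusted p under 0.05, open points do not, and the orange bar is the list median. Of the 50 genes 8 filled points lie above zero and 1, Il6, below.

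Among other TNF receptors, Tnfrsf1b, a receptor of TNF, differed by 0.51 (p = 0.0290, adjusted p = 0.287), whereas Cd40 and Cd27, both B cell costimulatory receptors, differed by -0.47 and -0.33 with unadjusted p of 0.128 and 0.142. The SLAM relatives Slamf6, Cd84 and Ly9 all had lower means in the aged samples, with differences of -0.55, -0.38 and -0.10 and none called. Slamf9, another SLAM relative, reached detection in 2 young samples and 5 aged ones and so missed the filter by 1 sample. It ran from 7.72 (median 7.97) to 9.00 in the young and from 8.21 (median 9.41) to 10.11 in the aged samples, and differed by 1.27 (SE 0.25, adjusted p = 0.0683 over all 45281 probes). It was singled out after its values were seen, because it was tested and called in 8 of the 15 fits that left out 1 sample. Slamf9 could pass the filter only in a fit that left out a sample where it was not detected. Its detection was mainly in the aged group, where it was high, so these fits give no separate support. The CD28 relatives Btla and Ctla4 differed by 0.58 and 0.47, with adjusted p of 0.418 and 0.430.

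BCMA is shed from the cell surface by gamma-secretase, and 6 of 7 receptor shedding genes were tested. The gamma-secretase subunit Psenen had a mean of 8.37 ± 0.41 (SD, n = 9) in the young and 9.10 ± 0.31 (SD, n = 6) in the aged samples, with all 6 aged samples above the young median. Its difference of 0.74 (SE 0.20, p = 0.00163) had an adjusted p of 0.0746 by limma. The subunit Psen2 differed by 0.34 (adjusted p = 0.218), Adam17, a sheddase of TNF and of several receptors, by 0.63 (adjusted p = 0.415) and Aph1a by -0.18 (adjusted p = 0.785).

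Downstream, the TRAF and NF-kB list had 9 tested genes. Traf1, an adaptor that NF-kB itself induces, differed by 0.66 (p = 0.0135, adjusted p = 0.203) and Birc2, which encodes the ubiquitin ligase cIAP1, by 0.43 (p = 0.0354, adjusted p = 0.311). Nfkbia, the inhibitor of NF-kB, differed by 0.30 (adjusted p = 0.522). In the JAK and STAT list Socs3, a feedback inhibitor of gp130 signalling, differed by 0.73 (p = 0.0166, adjusted p = 0.222), Ptpn11, which encodes the phosphatase SHP2, by 0.57 (p = 0.0413, adjusted p = 0.330) and Stat3 by 0.19 (adjusted p = 0.788). The CD28 and SLAM signalling genes Vav1 and Pik3r1 differed by 0.27 and -0.35, with adjusted p of 0.685 and 0.769. Of 8 tested survival genes 7 had a higher mean in the aged samples and none was called. Mcl1 was at 10.97 ± 0.33 (SD, n = 9) in the young and 11.42 ± 0.20 (SD, n = 6) in the aged samples, with all 6 aged samples above the young median. Its difference of 0.45 had an unadjusted p of 0.0215 and an adjusted p of 0.251 by limma. Bbc3, which encodes the pro-apoptotic protein PUMA, differed by 0.77 (p = 0.0502, adjusted p = 0.355), Bcl2 by 0.38 (adjusted p = 0.443) and Bcl2l1 by 0.35 (adjusted p = 0.651).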

How the data were processed

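Per the labels and methods, sorted ASC RNA was amplified, labelled with biotin and hybridized to Illumina MouseWG-6 v2 BeadChips. The authors deposited unnormalized probe intensity values with a detection p-value per probe, and a series table of intensity values on a linear scale. In that table the array medians lay between 285.601 and 295.97, which fits the quantile normalization that the methods name, and it was used as an alternative. Scanner software was not given in the sources used here.

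Here the 17 arrays were quantile normalized and put on the log2 scale without background subtraction, and the repeat arrays of young samples 3 and 4 were averaged, giving 15 samples. The filter kept probes detected (p-value under 0.05) in 8 or more samples whose highest and lowest samples lay 1.2-fold or more apart, and these were tested with limma 3.58.1 in R 4.3.3 (intensity trend, two-sided, Benjamini-Hochberg over 11073 probes). A sample with repeat arrays counted a probe as detected when either array did. Signals near background understate fold changes. Of the probes in the annotation, 20873 named 1 gene and 9 several genes, which were not used. In simulated data of this size the test recovered 68% of probes changed by 1 log2 unit and 16% of those changed by 0.5. The simulated noise was normal, independent between probes and equally wide in both groups, with no deviating sample such as aged sample 2. Recovery in the real data may therefore differ. The p-values measure the spread between samples, some of which were pools. Same-numbered young and aged samples are not paired by the labels. The receptors, gene lists and tests were chosen with earlier results of these data known. Named genes were all receptor probes, up to 4 genes of smallest p and up to 2 of highest signal per list, and the 2 genes most like each receptor. A receptor's main probe was its brightest that passed the filter.

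Alternatives covered scaling, background correction, the series table, filters, the test, repeat arrays, left-out samples and a replicate block.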

Additional observations from a re-analysis of the deposited data

Results flagged for a closer look

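The 2 results below each stood apart by the position of 1 sample. Young sample 7 had an Il5ra signal of 9.14 on the log2 scale, and the next young sample was at 8.44. Young sample 6 had a signal of 8.85 on the Il6ra probe ILMN_1216057, which was not tested, and the next young sample was at 8.34. In all, 24 groups of samples were examined in this way, and chance alone flags about 1 in 20.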

How the results depend on the processing

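The number of probes called over the whole array moved from 153 to 89 with 75th percentile scaling, 45 without a filter, 335 when detection was required in all samples of a group, 99 with the methods' t-test (1492 at the methods' unadjusted threshold), 702 with array weights and 39 to 317 with each sample left out. Called probes were higher with age in 76.5% of cases and in 92.1% with 75th percentile scaling. Of the receptor probes 0 were called with 75th percentile scaling, without a filter and with the methods' t-test. Il5ra then had adjusted p of 0.0777, 0.0950 and 0.0505. Of the receptor probes 2 were called without the intensity trend, 3 with detection p under 0.01 or detection in all samples of a group, 4 with array weights, which added Tnfrsf13c (adjusted p = 0.0331), and 0 to 3 with each sample left out. Background correction with neqc gave larger differences, of 1.64 for Tnfrsf13b, 1.79 for Il5ra and 1.73 for Slamf7. Over the alternatives that kept all samples, adjusted p ranged from 0.00268 to 0.228 for Tnfrsf13b. It ranged from 0.00519 to 0.0950 for Il5ra and from 0.00612 to 0.274 for Slamf7. Cd28 turned to -0.0095 with the first array only of the repeated samples, and ranged from -0.016 to 0.17 with each sample left out. Of the pathway genes 1 (Psenen) was called when detection was required in all samples of a group, 3 (Bbc3, Psenen and Traf1) with array weights, and 0 to 2 with each sample left out. The calls with a sample left out were of Slamf9, and of Psenen without young sample 7. The rule of all samples of a group left 6193 probes. Psenen and Il5ra passed it through the aged group alone, where they were high, whereas the main probes of Tnfrsf13b and Slamf7 were detected in all samples. The first arrays alone separated 5 pairs of receptors in place of 3, of which 1 did not involve Il6st. That 1 pair was Tnfrsf13b and the dim Tnfrsf17. With each sample left out, 1 to 10 pairs passed. With 75th percentile scaling 2 relations with the marker mean passed, for Tnfrsf17 in young (r = -0.92, adjusted p = 0.0233, and r = -0.53 without the 2 farthest samples) and Tnfrsf13b in aged samples (r = 0.93, adjusted p = 0.0486, and r = 0.86 without them). The rho of neither passed (adjusted p = 0.233 for both). With quantile normalization none passed with any 1 sample left out. The cause of these shifts was not tested.

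With the sample number as a replicate block, 55 probes and 0 receptor probes were called, and Il5ra differed by 0.92 (adjusted p = 0.0643). The numbers are only names: deviations of same-numbered samples correlated between -0.096 and 0.23, and 2 of 6 pairs were over 0.1, so this gives no pairing. The precision is limited by 9 and 6 samples and by dim signals, since Il6st, Tnfrsf17 and Cd28 lay near background. Il5ra also lay near background in the young samples, with detection in 5 of 9 and a median of 8.25. Its difference may therefore be understated.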

Other observations

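The repeat arrays give a measure of how far a receptor signal moved with no change of sample. Over the 8 tested receptor probes, the repeat arrays of young samples 3 and 4 differed by 0.10 to 1.59 on the log2 scale, with a median of 0.58, compared with a median of 0.28 over all tested probes. The widest gap, 1.59, was on the Slamf7 probe ILMN_2638491 in young sample 3, which read 9.37 on 1 array and 7.77 on the other. Cd28 differed by 1.16 between the arrays of that sample. On the main Tnfrsf13b probe the repeat arrays differed by 0.15 and 0.39, and on the Il5ra probe by 0.67 and 0.23.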
